A study of Mus musculus with 16 samples.

Results

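The genes described are 10 messengers of the unfolded protein response and the integrated stress response: Atf6, Xbp1, Atf4, Ddit3, Atf3, Hspa5, Pdia4, Asns, Trib3 and Chac1. They were chosen by the gene symbol of the array's probe sets, and all 10 were found among 19937 genes with a symbol. Of several probe sets for a gene, the one with the highest mean over 16 arrays was used. Expression was measured in mouse bone-marrow-derived macrophages, cells grown from marrow precursors, on a 129sv background. The 4 groups, with 4 arrays each, were NFAT5 KO cells stimulated with LPS, wild-type cells stimulated with LPS, unstimulated NFAT5 KO cells and unstimulated wild-type cells. The transcription factor NFAT5 is known for its role in hypertonic cells, and LPS, from the outer membrane of Gram-negative bacteria, activates macrophages through Toll-like receptor 4. The labels give neither the kind of NFAT5 allele nor the dose and duration of LPS. They do not tie arrays to animals or cultures either, so a p-value reflects the spread among the arrays alone. How much of that spread is technical was not known, though the sex-linked transcripts below differ among the arrays of each KO group.

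Proteins destined for secretion or for membranes fold in the endoplasmic reticulum, and unfolded chains there activate the sensors IRE1, PERK and ATF6. IRE1 splices the Xbp1 messenger, ATF6 is cut to release a transcription factor, and PERK phosphorylates the translation factor eIF2alpha. Phosphorylated eIF2alpha slows general translation and favours that of ATF4, the point at which amino acid shortage, viral RNA and other stresses join the same pathway. The arrays report messenger levels only, so splicing of Xbp1, cutting of ATF6 and translation of Atf4 were not measured. In bulk RNA, fewer cells of a type and less RNA per cell cannot be told apart.

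All values are log2 levels after robust multi-array average (RMA), in which 1 unit is a doubling, and RMA compresses changes of dim genes towards 0. A call means an adjusted p under 0.05 in limma with Benjamini-Hochberg adjustment over all 19937 genes, and every adjusted p below comes from that fit unless another is named. Nfat5, measured by 1 probe set, averaged 9.09 ± 0.29 in KO cells and 10.07 ± 0.34 in wild-type cells with LPS (SD, n = 4 each; exact two-sided permutation p = 0.0286, the smallest it can give), and 9.04 ± 0.12 and 9.39 ± 0.21 without LPS (exact p = 0.0571). Where the probe set lies relative to the altered exons was not known, so these levels are no check of the labels. All 8 macrophage markers, Csf1r, Adgre1, Cd68, Itgam, Fcgr1, Mertk, Lyz2 and Cd14, had group means of at least 8.98. The Y-linked transcript Kdm5d lay above the female transcript Xist on 6 of 8 KO arrays, those numbered 1 to 3, and on 0 of 8 wild-type arrays, so genotype and sex largely coincide. Neutrophil markers averaged 5.85 to 6.26 per array and mast cell markers 4.49 to 4.78. The stromal and the B and plasma cell lists had higher means on every LPS array than on every unstimulated array of the same genotype, the erythroid and megakaryocyte list did so in wild-type cells, and the dendritic cell list in KO cells (6.28 to 6.33 with LPS, against 6.08 to 6.24 without). For 6 stromal markers the mean was 7.43 to 7.58 in KO and 7.65 to 7.69 in wild-type cells with LPS, against 6.88 to 7.06 in KO and 6.73 to 7.01 in wild-type cells without. Among them Pdgfrb moved most (group means 9.91 in KO and 10.81 in wild-type cells with LPS, against 6.757 in KO and 6.934 in wild-type cells without). The group means of Col1a1, Col1a2, Col3a1, Cxcl12 and Dcn each spanned under 0.3. The 5 measured B and plasma cell markers averaged 5.87 to 6.13 in KO and 5.80 to 6.10 in wild-type cells with LPS, against 5.66 to 5.79 and 5.57 to 5.71 without, with Sdc1 at 9.82 in both genotypes with LPS, against 8.36 in KO and 8.57 in wild-type cells without. The 4 erythroid and megakaryocyte markers averaged 7.57 to 8.02 in KO and 7.71 to 7.88 in wild-type cells with LPS, against 7.36 to 7.64 and 7.10 to 7.36 without, with Pf4 at 11.04 in KO and 10.70 in wild-type cells with LPS, against 9.83 in KO and 9.24 in wild-type cells without. The part of these markers in the results was not tested.

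With LPS, 4 of the 10 genes passed the test in each genotype, 2 in each direction. In wild-type macrophages Atf4 and Trib3 rose, Atf6 and Pdia4 fell, and 6 genes did not pass the test. Over all genes tested, 14.0% were called higher and 16.8% lower in that comparison, and 30.8% either way, so 4 of 10 lies near the background. In KO macrophages Atf4 and Chac1 rose and Atf6 and Pdia4 fell, against 12.0% higher, 12.7% lower and 24.7% either way over all genes. LPS and unstimulated arrays did not overlap for 4 of the 10 genes in KO cells (2 higher and 2 lower), against 12.4% of all genes in each direction and 24.8% in either. In wild-type cells they did not overlap for 4 of the 10, again 2 in each direction, against 16.2% in each direction and 32.3% in either. The median log2 change of the 10 genes was 0.06 in KO cells, against 0.01 for all genes, and 0.11 in wild-type cells, against 0.06 for all genes.

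**Figure D1:**
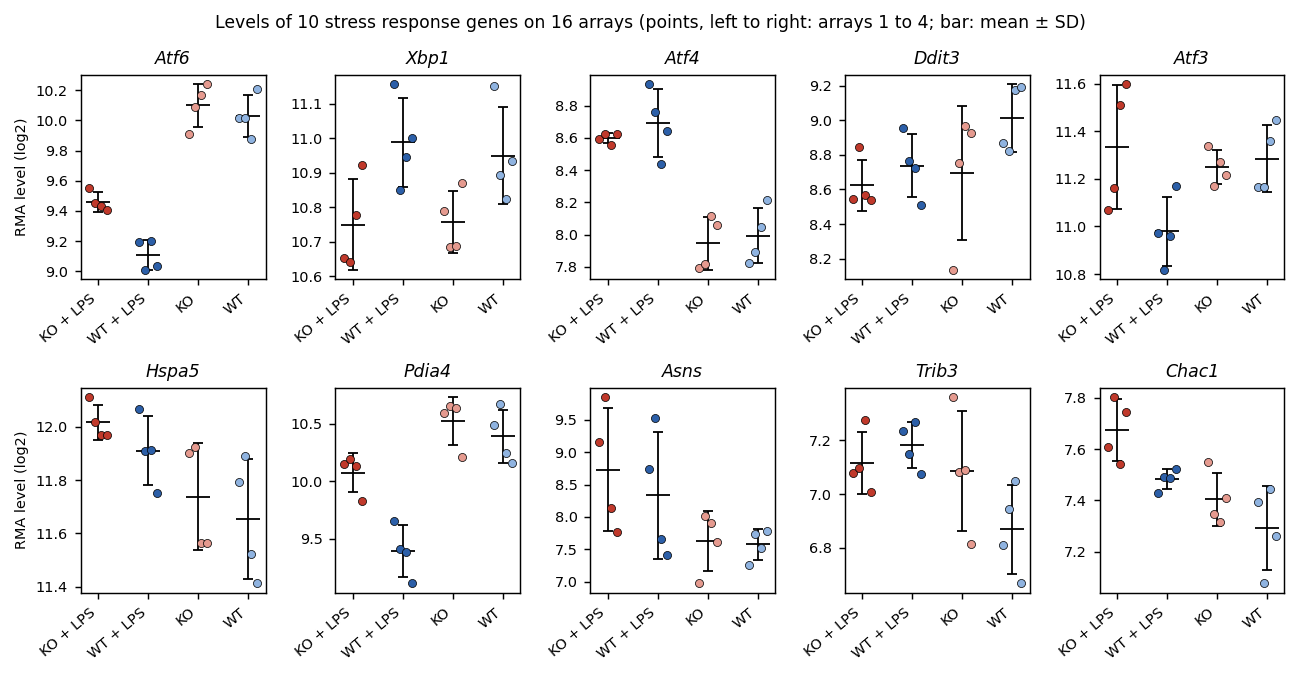
RMA levels (log2) of the 10 genes on each of 16 arrays, with the group mean and SD as bars, for KO with LPS, WT with LPS, KO and WT from left to right. Atf6 and Pdia4 were lower and Atf4 higher on every LPS array than on every unstimulated array of the same genotype, and the Asns levels of the LPS groups spread over more than those of the unstimulated groups.

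Atf6, on chromosome 1, encodes the membrane-anchored sensor that is cut in the Golgi to free a transcription factor for chaperone genes. Its levels were 9.55, 9.45, 9.43 and 9.40 on KO arrays 1 to 4 with LPS, against 9.91, 10.09, 10.17 and 10.24 on KO arrays without LPS. In wild-type cells they were 9.19, 9.01, 9.20 and 9.04 with LPS, against 10.02, 10.02, 9.87 and 10.21 without. All LPS arrays lay below all unstimulated arrays, and all KO arrays with LPS lay above all wild-type arrays with LPS. The fall with LPS was -0.64 ± 0.09 in KO cells (SE; 1.56-fold; adjusted p = 3.15e-05) and -0.92 ± 0.09 in wild-type cells (1.89-fold; adjusted p = 2.97e-07). Both falls kept the call in all 22 other settings of each comparison.

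Xbp1, on chromosome 11, encodes the transcription factor whose messenger IRE1 splices. It stayed within a narrow span: 10.65, 10.64, 10.78 and 10.92 in KO cells and 11.16, 10.85, 10.95 and 11.00 in wild-type cells with LPS, and 10.79, 10.68, 10.69 and 10.87 in KO cells and 11.15, 10.89, 10.82 and 10.93 in wild-type cells without. The log2 change with LPS was -0.01 in KO cells (95% interval -0.21 to 0.20) and 0.04 in wild-type cells (-0.17 to 0.24), and neither passed the test. The groups overlapped in every comparison. Whether the probe set separates spliced from unspliced messengers was not examined.

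Hspa5 and Pdia4 are chaperones of the endoplasmic reticulum that ATF6 and XBP1 are known to induce. Hspa5 encodes BiP, which binds unfolded chains and holds the sensors inactive, and Pdia4 encodes a protein disulfide isomerase. Their promoter sequences, from 250 bases before to 50 after the RefSeq gene start (GRCm38.p6), are shown because Pdia4 fell with LPS in both genotypes whereas Hspa5, another target of the same factors, did not pass the test. Capitals mark CCAAT boxes (CCAAT on either strand, in 37.4% of 32544 mouse promoter windows), the ER stress response element (ERSE, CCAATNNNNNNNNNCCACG on either strand, which holds a CCAAT box, in 0.12%) and the UPRE core TGACGTG (in 2.02%).
Hspa5, chr2:34771840-34772139, plus strand: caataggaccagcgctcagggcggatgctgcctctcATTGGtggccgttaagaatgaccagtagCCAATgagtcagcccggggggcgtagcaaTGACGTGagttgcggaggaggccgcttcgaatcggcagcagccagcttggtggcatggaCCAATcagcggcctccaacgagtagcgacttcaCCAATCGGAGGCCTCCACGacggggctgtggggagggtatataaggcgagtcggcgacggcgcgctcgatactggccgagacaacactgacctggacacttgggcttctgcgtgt
Pdia4, chr6:47813463-47813762, minus strand: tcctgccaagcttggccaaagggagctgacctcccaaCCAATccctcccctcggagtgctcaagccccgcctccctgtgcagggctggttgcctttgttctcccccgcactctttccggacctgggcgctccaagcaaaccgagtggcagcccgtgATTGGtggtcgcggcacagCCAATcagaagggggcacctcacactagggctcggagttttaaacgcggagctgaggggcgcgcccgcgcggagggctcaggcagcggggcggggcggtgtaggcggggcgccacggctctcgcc
The Hspa5 window held 4 CCAAT boxes, 1 of them within an ERSE 65 to 47 bases before the start, and a UPRE core. The Pdia4 window held 3 CCAAT boxes and no ERSE or UPRE core in these letters. Among the 9 of 10 genes with a promoter window, only Hspa5 held an ERSE in exactly these letters. None held the tonicity element that NFAT5 binds (TonE, in 4.97% of promoters). The search required every fixed letter, so elements with a changed letter were not counted in any window, those of Hspa5 and Pdia4 included. A match is a description of the letters and not a binding site.

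Hspa5 was slightly higher with LPS in both genotypes without passing the test. The levels were 12.11, 12.02, 11.97 and 11.97 with LPS in KO cells, against 11.90, 11.92, 11.56 and 11.56 without, and 12.07, 11.91, 11.91 and 11.75 with LPS in wild-type cells, against 11.79, 11.89, 11.52 and 11.41 without. In KO cells every LPS array lay above every unstimulated array, whereas wild-type arrays overlapped. The log2 differences were 0.28 ± 0.117 (SE, adjusted p = 0.0997) in KO cells and 0.26 ± 0.117 (adjusted p = 0.114) in wild-type cells. The array number in the sample title accounted for 73.9% of the within-group variance of Hspa5: in each of the unstimulated groups, arrays 3 and 4 lay below arrays 1 and 2. With the number as a block in the limma fit, Hspa5 was called higher with LPS in KO cells (adjusted p = 0.0209) and in wild-type cells (adjusted p = 0.0288).

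Pdia4 fell with LPS in both genotypes. Its levels were 10.15, 10.19, 10.13 and 9.83 with LPS in KO cells, against 10.59, 10.65, 10.63 and 10.21 without. In wild-type cells they were 9.66, 9.41, 9.39 and 9.11 with LPS, against 10.49, 10.67, 10.25 and 10.15 without. The LPS and unstimulated arrays did not overlap in either genotype, and array 4 was the lowest of each of the 4 groups. The change was -0.45 ± 0.14 in KO cells (SE; 1.36-fold; adjusted p = 0.0215) and -0.997 ± 0.14 in wild-type cells (1.995-fold; adjusted p = 1.32e-05). The KO call was lost without KO array 1, 2 or 3 or KO LPS array 4 (adjusted p = 0.0517, 0.0663, 0.064 and 0.0783). A dimmer probe set of the gene, with a mean of 6.38 against 10.09, had group means of 6.19 and 6.63 with and without LPS in KO cells and 6.27 and 6.45 in wild-type cells.

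Atf4, on chromosome 15, encodes the transcription factor of the integrated stress response. It rose in both genotypes, by 0.65 ± 0.11 in KO cells (SE; 1.57-fold; adjusted p = 0.000200) and by 0.70 ± 0.11 in wild-type cells (1.62-fold; adjusted p = 7.74e-05). The levels were 8.60, 8.63, 8.56 and 8.63 with LPS in KO cells, against 7.79, 7.82, 8.11 and 8.06 without. In wild-type cells they were 8.94, 8.76, 8.44 and 8.64 with LPS, against 7.82, 7.90, 8.05 and 8.21 without. No LPS array overlapped an unstimulated one, and the LPS groups of the genotypes overlapped each other. In the 10 arrays without Y-linked transcripts, which hold only array 4 of each KO group, the KO difference was 0.57.

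Ddit3 and Atf3 are transcription factors downstream of ATF4. Ddit3 encodes CHOP, known for promoting cell death in prolonged stress, and Atf3 encodes a factor that also restrains inflammatory genes. Ddit3 had levels of 8.55, 8.84, 8.57 and 8.54 with LPS in KO cells, against 8.13, 8.75, 8.97 and 8.93 without, and 8.96, 8.77, 8.73 and 8.51 with LPS in wild-type cells, against 8.87, 8.82, 9.17 and 9.20 without. KO array 1 without LPS held the lowest of these 16 values. The log2 differences with LPS were -0.07 ± 0.16 in KO cells (SE, adjusted p = 0.840) and -0.28 ± 0.16 in wild-type cells (adjusted p = 0.212), so Ddit3 was not called while Atf4 rose. Without the 4 arrays numbered 1, a setting added after the data were seen, Ddit3 was called lower in wild-type cells (-0.40, adjusted p = 0.0323).

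Atf3 lay between 10.82 and 11.60 on all arrays. Its levels were 11.07, 11.16, 11.51 and 11.60 with LPS in KO cells, against 11.34, 11.17, 11.27 and 11.22 without, and 10.97, 10.82, 10.96 and 11.17 with LPS in wild-type cells, against 11.17, 11.17, 11.36 and 11.45 without. The log2 difference was 0.09 ± 0.12 in KO cells (SE, adjusted p = 0.718) and -0.30 ± 0.12 in wild-type cells (adjusted p = 0.0581). The wild-type difference passed the threshold in 11 of 22 other settings, among them those without wild-type array 1 (adjusted p = 0.0498) and without wild-type LPS array 4 (adjusted p = 0.033).

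Asns, Trib3 and Chac1 are known targets of ATF4. Asns encodes asparagine synthetase, Trib3 a pseudokinase that dampens ATF4 and AKT activity, and Chac1 an enzyme that degrades glutathione. The C/EBP-ATF response element through which ATF4 acts (CARE, searched as TGATGNAA on both strands) was found in the promoter windows of 4 of 9 genes with an entry, against 3.91% of all 32544 windows. Each is shown on the strand of the match, with 16 bases on either side and the match in capitals (RefSeq, GRCm38.p6), so that the elements can be read beside the different responses of their genes.
Asns, chr6:7693209-7693248, minus strand: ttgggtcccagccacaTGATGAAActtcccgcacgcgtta
Trib3, chr2:152344023-152344062, plus strand: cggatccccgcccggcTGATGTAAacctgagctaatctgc
Chac1, chr2:119351033-119351072, minus strand: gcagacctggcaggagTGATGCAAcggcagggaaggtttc
Atf3, chr1:191183420-191183459, plus strand: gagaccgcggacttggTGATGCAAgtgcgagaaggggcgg
The Chac1 and Atf3 elements share the same 8 letters, TGATGCAA, while Asns has TGATGAAA and Trib3 TGATGTAA. The Trib3 match lies 15 to 22 bases after the gene start, and the other matches lie before the start.

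Asns varied more between arrays of a group than the other 9 genes. With LPS its levels were 9.16, 9.85, 8.13 and 7.77 in KO cells and 8.74, 9.53, 7.67 and 7.41 in wild-type cells, and without LPS they were 6.98, 8.02, 7.91 and 7.61 in KO cells and 7.27, 7.73, 7.53 and 7.78 in wild-type cells. In both genotypes, LPS arrays 1 and 2 lay above all unstimulated arrays, and LPS arrays 3 and 4 lay within or close to the range of the unstimulated arrays. The log2 differences of 1.10 ± 0.431 in KO cells (SE, adjusted p = 0.0754) and 0.76 ± 0.431 in wild-type cells (adjusted p = 0.209) did not pass the test. The KO difference was called without KO LPS array 4 (1.42, adjusted p = 0.0216), and was 0.73 without KO LPS array 2. It was also called with the array number as a block (1.10, adjusted p = 0.0201). The wild-type difference was 0.36 without wild-type LPS array 2.

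Trib3 had levels of 7.08, 7.10, 7.28 and 7.01 with LPS in KO cells, against 7.36, 7.08, 7.09 and 6.81 without, and 7.23, 7.15, 7.27 and 7.08 with LPS in wild-type cells, against 6.81, 6.95, 7.05 and 6.67 without. All wild-type LPS arrays lay above all unstimulated wild-type arrays, and KO arrays overlapped. Trib3 rose by 0.31 ± 0.11 in wild-type cells (SE, adjusted p = 0.0399), and in KO cells the difference was 0.03 ± 0.11 (adjusted p = 0.919). Trib3 was dim, with a mean of 7.06 over all arrays, at percentile 49.1 of all genes. The stromal marker Col3a1 stood at a similar level in wild-type cells, 7.37 with LPS and 7.12 without. Whether the Trib3 signal lies above the background of the array was not tested. The wild-type call was lost without wild-type array 1 or 4 (adjusted p = 0.0816 and 0.136) or wild-type LPS array 1, 2 or 3 (0.0888, 0.0631 and 0.104). The difference between the genotypes in the response, -0.29 ± 0.16, did not pass the test (adjusted p = 0.600).

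Chac1 had levels of 7.61, 7.80, 7.54 and 7.75 with LPS in KO cells, against 7.55, 7.35, 7.31 and 7.41 without, and 7.43, 7.49, 7.49 and 7.52 with LPS in wild-type cells, against 7.39, 7.08, 7.44 and 7.26 without. The LPS and unstimulated arrays overlapped slightly in both genotypes. Chac1 rose by 0.27 ± 0.09 in KO cells (SE, adjusted p = 0.0418), and in wild-type cells the difference was 0.19 ± 0.09 (adjusted p = 0.142). Chac1 was dim too, with a mean of 7.46 over all arrays, at percentile 56.7 of all genes. The stromal marker Col1a2 stood at a similar level in KO cells, 7.59 with LPS and 7.48 without. Whether the Chac1 signal lies above the background was not tested either. The KO call was lost without KO array 2, 3 or 4 (adjusted p = 0.103, 0.117 and 0.0697) or KO LPS array 1, 2 or 4 (0.051, 0.136 and 0.0995), and when the fit held just the KO groups (0.0735).

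**Figure D2:**
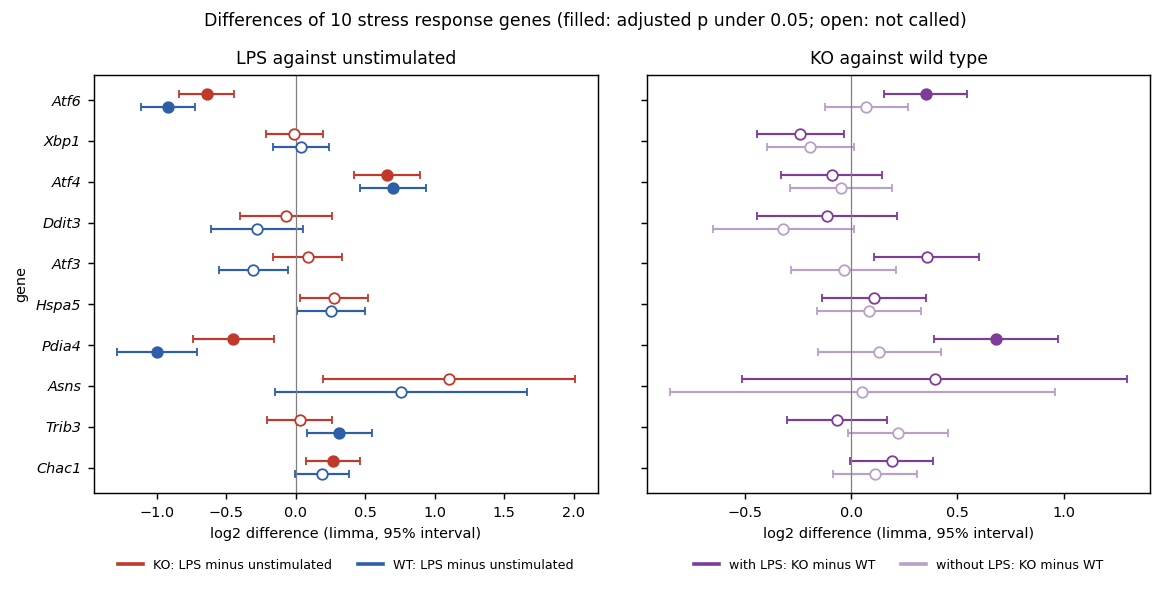
Log2 differences of the 10 genes with 95% intervals from the limma fit of 16 arrays, LPS minus unstimulated on the left and KO minus wild type on the right, with filled points where adjusted p was under 0.05. Atf6 and Pdia4 stand below 0 with LPS in both genotypes and above 0 in KO against wild-type cells with LPS, and no point is filled for KO against wild type without LPS.

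Without LPS, no difference between KO and wild-type cells passed the test. None of the 10 was called in limma, 0 had an unadjusted p under 0.05, and the groups overlapped for all 10, against 0.140% of all genes called higher, 0.863% lower and 1.0% in either direction. Over all genes, groups did not overlap with KO higher in 1.47%, with KO lower in 2.86% and in either direction in 4.33%. The differences ranged from -0.32 for Ddit3 (95% interval -0.65 to 0.01) to 0.22 for Trib3 (-0.02 to 0.45). Xbp1 and Ddit3 were lower in KO than in wild-type cells for all 4 array numbers and Hspa5 and Trib3 higher for all 4, but no such difference passed the test.

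With LPS, Pdia4 and Atf6 were higher in KO than in wild-type cells. They are 2 of 10, against 1.80% of all genes called higher, 1.26% called lower and 3.05% either, and 0 of the 10 were lower. Pdia4 differed by 0.68 ± 0.14 (SE; 1.60-fold; adjusted p = 0.00862) and Atf6 by 0.35 ± 0.09 (1.28-fold; adjusted p = 0.0486). KO and wild-type arrays with LPS did not overlap for Pdia4, Atf6 and Chac1, against 4.15% of all genes with KO higher, 3.59% with KO lower and 7.73% in either direction. The other differences ranged from -0.24 for Xbp1 (95% interval -0.44 to -0.03; adjusted p = 0.298) to 0.39 for Asns (-0.51 to 1.30; adjusted p = 0.933).

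The 2 calls differed in how far they held. Pdia4 kept its call without any 1 of the 8 arrays, whereas Atf6 lost it without any 1 of them (adjusted p = 0.0597 to 0.193). Without all arrays numbered 2 or all numbered 3, Pdia4 lost it too (0.65, adjusted p = 0.0938, and 0.66, adjusted p = 0.113). With a term for Y-linked transcripts, the Pdia4 difference was 0.40 (adjusted p = 0.156) and that of Atf6 0.39 (adjusted p = 0.0903). With that term and the array number as a block, Pdia4 differed by 0.66 (adjusted p = 0.0477) and Atf6 by 0.34 (adjusted p = 0.382). In the 10 arrays without Y-linked transcripts, which hold only KO LPS array 4 for that group, they were 0.43 (adjusted p = 0.394) and 0.29 (adjusted p = 0.412), a lone array being assumed to vary like the others. The mean of both Pdia4 probe sets differed by 0.30 (adjusted p = 0.580), and the dimmer one had group means of 6.19 in KO and 6.27 in wild-type cells with LPS.

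Arrays of the same number deviated together in the genotype comparisons, so differences within a number are given. With LPS, KO minus wild type was 0.49, 0.78, 0.74 and 0.71 for Pdia4, 0.36, 0.44, 0.23 and 0.37 for Atf6, and 0.10, 0.35, 0.55 and 0.43 for Atf3 for numbers 1 to 4. For Asns these differences were 0.43, 0.32, 0.47 and 0.36, a narrow range beside levels that spread from 7.41 to 9.85 with LPS. With the number as a block, Atf3 was called higher in KO (0.36, adjusted p = 0.0441, against 0.141 without the block), but not in the blocked fit of only the 8 LPS arrays (adjusted p = 0.0537) or with the Y-linked term added to the block (0.30, adjusted p = 0.451). Asns was not called with the block in the fit of all 16 arrays (adjusted p = 0.752) and was called in the blocked fit of only the 8 LPS arrays (adjusted p = 0.0154), a setting added after the data were seen. Hspa5 and Chac1 were also higher in KO for all 4 numbers with LPS, and neither was called in any setting. Xbp1 was lower in KO for all 4 numbers with LPS (-0.50, -0.21, -0.17 and -0.08), and it was not called in any setting either.

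**Figure D3:**
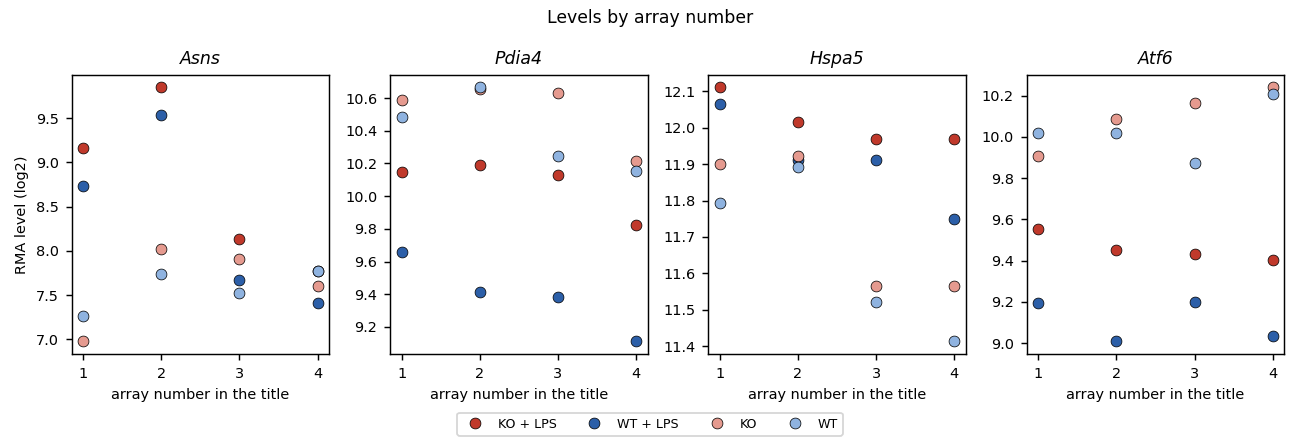
RMA levels (log2) of Asns, Pdia4, Hspa5 and Atf6 by the array number in the sample title, coloured by group. Pdia4 is lowest at number 4 in each group, and with LPS Asns is above 8.7 at numbers 1 and 2 and below 8.2 at numbers 3 and 4 in both genotypes.

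Without the array number in the fit, the response to LPS was not called different between the genotypes for any of the 10 genes. In limma 0 of 10 passed the test for the difference in response, against 0.988% of all genes called higher, 0.301% lower and 1.29% either, and 3 had an unadjusted p under 0.05: Pdia4 (0.55 ± 0.19, SE; adjusted p = 0.251), Atf3 (0.39 ± 0.17; adjusted p = 0.399) and Atf6 (0.28 ± 0.13; adjusted p = 0.483). All 3 differences were positive, KO minus wild type. With the array number as a block, Pdia4 was called (0.55, adjusted p = 0.0310), as it was with the block and the Y-linked term (adjusted p = 0.0347). These calls rest on the brighter Pdia4 probe set, which fell less in KO than in wild-type cells. The dimmer one fell more in KO cells, from 6.63 to 6.19 with LPS, than in wild-type cells, from 6.45 to 6.27.

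The other genes of these pathways were counted in 5 lists. The lists were chosen with earlier results of these data known. Their counts beside the shares over all genes are therefore descriptions and not independent support. Among 9 measured sensors, eIF2alpha kinases and phosphatases, LPS raised 4 and lowered 3 in KO cells and raised 4 and lowered 5 in wild-type cells. Over all genes, 24.7% were called either way in KO cells and 30.8% in wild-type cells, against 7 of 9 and 9 of 9 here. The kinase genes split. Eif2ak3, which encodes PERK, fell, with differences of -0.69 in KO cells and -0.97 in wild-type cells, and so did Eif2ak4, which encodes the amino acid sensor GCN2 (-1.01 in KO, -0.94 in wild-type cells). Ern1, which encodes IRE1alpha, differed by -1.02 in KO and -0.95 in wild-type cells (adjusted p at most 5.18e-05 for Ern1, Eif2ak3 and Eif2ak4). Eif2ak2, which encodes the double-stranded RNA sensor PKR, rose by 1.63 in KO cells and by 0.79 in wild-type cells. Ppp1r15a, which encodes the stress-induced GADD34 that directs dephosphorylation of eIF2alpha, rose by 2.49 in KO and by 2.58 in wild-type cells (adjusted p = 6.50e-08 and 3.02e-08), and Ppp1r15b, its constitutive relative, by 0.96 and 1.06. Levels of Ppp1r15a were 10.29, 9.98, 9.40 and 10.69 with LPS in KO cells, against 7.59, 7.59, 7.18 and 8.04 without, with no overlap. None of the 9 was called between the genotypes in either state.

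Of 15 genes of chaperones and folding enzymes, LPS raised 4 and lowered 0 in KO cells, with a median change of 0.00, and raised 2 and lowered 4 in wild-type cells, with a median change of 0.03. These counts, 4 and 6 of 15, lie near the shares over all genes (24.7% in KO and 30.8% in wild-type cells). Ero1a, an oxidase that forms disulfide bonds, rose by 0.85 in KO cells and by 1.23 in wild-type cells. Pdia3, a disulfide isomerase for glycoproteins, fell by 0.34 in wild-type cells, and Dnajb11, a BiP co-chaperone, rose by 0.45 in KO cells. With LPS, 14 of the 15 differences between KO and wild type were positive (median 0.20, against -0.01 and 46.6% positive over all genes), but only Pdia3 was called. Without LPS 14 of 15 were also positive (median 0.06, 0 called). With the array number as a block 3 were called higher with LPS, with the Y-linked term 0 higher and 1 lower, and without wild-type LPS array 1 there were 2 higher. Pdia3 had levels of 11.53, 11.50, 11.43 and 11.47 in KO cells with LPS, against 11.21, 11.20, 11.09 and 11.12 in wild-type cells with LPS, with no overlap and a difference of 0.33 ± 0.08 (SE, adjusted p = 0.0335). Its call was lost without any 1 of the 8 arrays (adjusted p = 0.0555 to 0.106) and with the Y-linked term (0.29, adjusted p = 0.148). Of 10 genes of ER-associated degradation, which returns misfolded proteins to the proteasome, LPS raised 4 and lowered 0 in KO cells and raised 2 and lowered 2 in wild-type cells, so 4 of 10 in each, against 24.7% of all genes in KO and 30.8% in wild-type cells. Selenos rose by 0.56 and 0.54 in KO and wild-type cells, and Edem2 fell by 0.77 in wild-type cells.

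**Figure D4:**
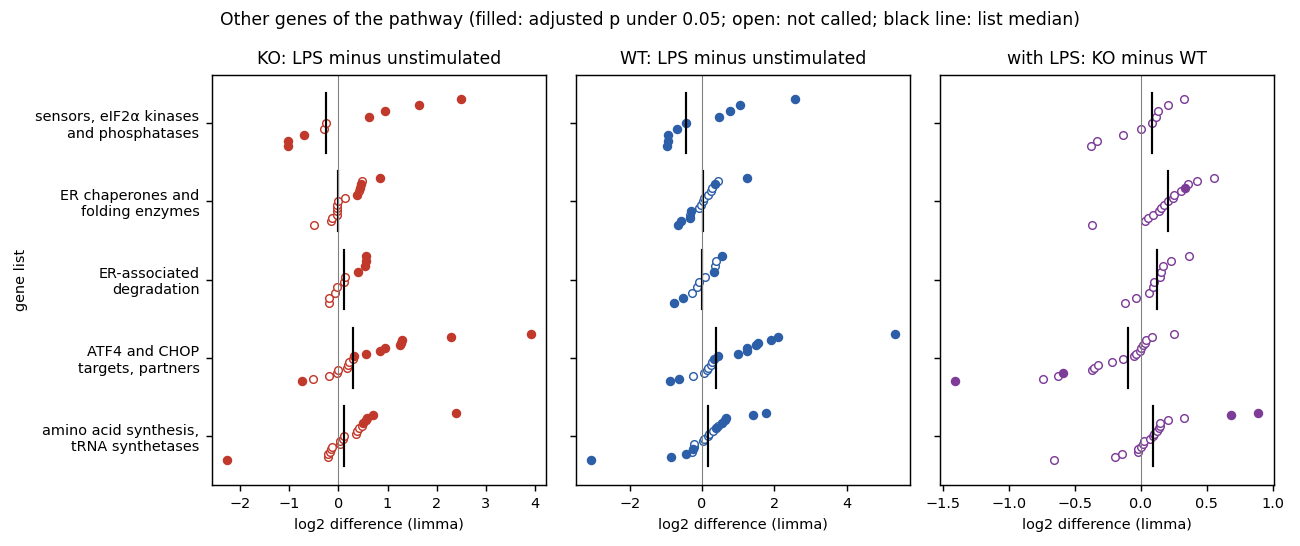
Log2 differences of the other measured genes of 5 lists, 1 point per gene, with the list median as a black line and filled points where adjusted p was under 0.05, for LPS minus unstimulated in KO and in WT cells and for KO minus WT with LPS. Nearly all chaperone points lie right of 0 in the last panel with 1 of 15 filled, and Slc7a11 is the farthest point to the left there.

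Among targets and partners of ATF4 and CHOP, more were called higher than lower with LPS. Of 18 measured, 9 rose and 1 fell in KO cells and 10 rose and 2 fell in wild-type cells. Over all genes, 12.0% were called higher and 12.7% lower in KO cells, and 14.0% higher and 16.8% lower in wild-type cells. Slc7a11, the cystine transporter, had levels of 10.72, 10.51, 10.46 and 9.51 with LPS in KO cells, against 6.42, 6.94, 6.12 and 6.10 without, and 11.48, 11.87, 11.88 and 11.60 with LPS in wild-type cells, against 5.91, 6.56, 6.71 and 6.36 without. It rose by 3.91 ± 0.24 in KO cells and by 5.33 ± 0.24 in wild-type cells (SE), and with LPS it was lower in KO by 1.41 log2 units, a difference of -1.41 ± 0.24 (adjusted p = 0.00183). Nupr1, a stress-induced nuclear protein, rose by 2.29 in KO and by 1.90 in wild-type cells, and was lower in KO without LPS, with a difference of -0.98 ± 0.15 (adjusted p = 0.00222; 0.131 with the Y-linked term and the block). These were 2 of 18 called lower in KO with LPS, against 1.26% of all genes. The Nupr1 call with LPS (-0.59, adjusted p = 0.0443) held without wild-type LPS array 3. It was lost without any other 1 of the 8 arrays (adjusted p = 0.0537 to 0.155). Slc7a5, a transporter of large neutral amino acids, rose by 1.29 in KO and by 1.25 in wild-type cells. Cebpg, a partner of ATF4, fell, with differences of -0.74 in KO and -0.63 in wild-type cells, and Sesn2 fell by 0.89 in wild-type cells.

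Genes of amino acid synthesis and aminoacyl-tRNA synthetases were mixed. Of 20 measured, LPS raised 5 and lowered 1 in KO cells and raised 6 and lowered 4 in wild-type cells. The 6 called in KO cells lie near the 24.7% over all genes, and the 10 called in wild-type cells compare with 30.8%. Mthfd2, of mitochondrial folate metabolism, rose by 2.40 in KO and by 1.78 in wild-type cells, and Psat1, of serine synthesis, rose by 1.42 in wild-type cells. Got1, the cytosolic aspartate aminotransferase, fell, with differences of -2.25 in KO cells and -3.06 in wild-type cells. With LPS, Got1 had levels of 8.71, 8.64, 8.56 and 8.41 in KO cells and 8.02, 7.45, 7.97 and 7.32 in wild-type cells, with no overlap and a difference of 0.89 ± 0.13 (SE, adjusted p = 0.000774; 0.0525 with the Y-linked term and the block). Shmt2, of serine and glycine conversion, was the other of 2 called higher in KO with LPS (0.68, adjusted p = 0.0217), against 1.80% of all genes. Its call was lost without KO LPS array 1 or 2 or wild-type LPS array 4 (0.0914, 0.0817 and 0.064). With the Y-linked term the Shmt2 difference was 0.47 (adjusted p = 0.197), and with that term and the block 0.43 (adjusted p = 0.502). In the 10 arrays without Y-linked transcripts, which hold only array 4 of the KO LPS group, it was 0.27.

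The patterns most like those of Pdia4 and Asns, whose group means span at least 1 log2 unit, were sought over the 16 arrays. The measure was the root mean square difference between log2 levels centred on each gene's mean. The nearest to Pdia4 were Mlec (0.129), Trf (0.135) and Hsd17b4 (0.152). The nearest to Asns were Tspan33 (0.449), Slc7a5 (0.461) and Ddx19b (0.463), at a distance larger than for Pdia4. Slc7a5 with LPS stood at 9.55, 9.66, 8.88 and 8.31 in KO cells and 9.17, 9.88, 9.17 and 8.71 in wild-type cells, with array 2 the highest of both groups, as for Asns.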

How the data were processed

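The authors deposited 1 log2 level per probe set and array. RMA is named in the submitters' processing notes, without a version. The file held 34760 probe sets, of which 21640 had 1 gene in the platform annotation, 1321 several and 11799 no entry. Symbols and chromosomes were looked up in RefSeq GRCm38.p6, which changed 0 symbols. The members and the gene lists were chosen with earlier results of these data known. Alternatives were the array number as a block, only the groups compared, single arrays or numbers left out, a term for Y-linked transcripts, the mean of all probe sets, only genes of at least 7 on at least 4 arrays, median centring and a trended robust prior.

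All 16 arrays were fitted together with limma 3.58.1 (R 4.3.3; lmFit, then eBayes), each group having its own mean, with 12 residual degrees of freedom before moderation, and 5 contrasts. Titles gave the replicate numbers. Once group means were removed, levels correlated between same-numbered KO and wild-type arrays by 0.16 to 0.442 without LPS and 0.186 to 0.518 with LPS, all above the minimum of 0.1, so the number pairs the genotypes. Between LPS and unstimulated arrays they correlated by -0.06 to 0.558 in KO and 0.045 to 0.429 in wild-type cells. Number 1 fell below the minimum in both genotypes, and the other numbers lay above it. By that minimum the number was not taken to pair those arrays, but whether it does was not settled. Arrays of a group differed by an SD of 0.172 to 0.381, so none was a duplicate. Array medians lay between 6.76 and 6.86, and precision is limited by how many arrays there are. Listed genes without a named probe set numbered 2 of the sensors, 1 of the ATF4 targets and 2 of the amino acid genes. Named genes were all 10 members and, per list and contrast, up to 3 called genes of each direction with the largest change, some left out for length, and Ero1a counts in both the chaperone and the ATF4 lists. The procedure was tested on simulated data.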

Additional observations from a re-analysis of the deposited data

Results flagged for a closer look

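In 3 of 44 sets of 4 arrays (the 10 genes and Nfat5 in each group), 1 array lay far from the others by Dixon's criterion, and chance flags about 1 in 20 such sets. Ddit3 stood at 8.84 on KO LPS array 2, with the nearest other array of the group at 8.57. Pdia4 stood at 10.21 on KO array 4 (nearest other 10.59) and at 9.83 on KO LPS array 4 (nearest other 10.13). KO arrays numbered 4 are the KO arrays without Y-linked transcripts, and wild-type arrays numbered 4 were the lowest of their groups for Pdia4 too. The array number accounted for 81.3% of the within-group variance of Pdia4, the largest share among the 10 genes, and for 16.5% of that of Ddit3. Some share arises even where the number has no effect, so the Ddit3 share shows no part of the number. Beyond these shares, the part of sex or of the array number in the flagged values was not tested.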

How the results depend on the processing

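Of 10 gene and contrast pairs called among the members, 165 repeats under other settings kept the call and 55 lost it, and 0 reversed. Of the 40 pairs not called, 27 repeats passed the threshold, and 60 changed sign without a call on either side. Members called numbered 4 for LPS in KO cells, 2 to 4 with single arrays left out, and 2 without the arrays numbered 2 or 3. For LPS in wild-type cells they numbered 4, and 3 to 5 with single arrays left out. For KO against wild type without LPS they numbered 0 throughout. For KO against wild type with LPS they numbered 2, but 1 with any single array left out, in only the groups compared, without the arrays numbered 4 or 1, with the mean of all probe sets, with the trended prior, and with the Y-linked term and the block together. They numbered 0 without the arrays numbered 2 or 3 and with the Y-linked term. With the block alone, Atf3 was called beside Pdia4 and Atf6 (adjusted p = 0.0441). In the blocked fit of only the groups compared, Asns was called beside them (adjusted p = 0.0154). For the difference in response they numbered 0, but 1 (Pdia4 by its brighter probe set, 0.55, adjusted p = 0.031) with the replicate block. They also numbered 1 with the block and the Y-linked term. With the block, Hspa5 was called with LPS in KO (0.28, adjusted p = 0.0209) and wild-type cells (0.26, adjusted p = 0.0288), Asns in KO cells (1.10, adjusted p = 0.0201) and Atf3 in wild-type cells (-0.30, adjusted p = 0.0202). The cause of these changes was not tested beyond the fewer samples of some fits. Of 54 named results on other genes, 32 kept the call in every setting and 0 reversed. Median centring moved the share of higher calls over all genes by under 10 percentage points in each contrast. Counts of chaperone genes ranged from 3 to 6 higher in KO and from 1 to 3 higher in wild-type cells with single arrays left out. With the replicate block they were 6 higher and 1 lower in KO (4 and 0 without it) and 5 higher and 5 lower in wild-type cells (2 and 4 without it), and genes of ER-associated degradation were 4 higher and 3 lower in wild-type cells (2 and 2 without it).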
